A study of Mus musculus with 9 samples.

Results

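Of the 9 brain arrays, 3 carried transcripts of skeletal muscle and of granulocytes and their bone marrow precursors at levels that the other 6 arrays did not have. They were the arrays labelled Model group 1, Model group 2 and HPYD group 2, called model 1, model 2 and HPYD 2 here. They were chosen from their own values of such genes (Acta1, Ckm and S100a8), so the difference between them and the other 6 arrays is given as a description with no test. The 6 others were control 1 to 3, model 3, HPYD 1 and the array labelled HPYD group 3. The control group held brain tissue of wild type C57/6J mice given saline. The model group held brain tissue of APP/PS1 transgenic mice on the C57/6J background, also given saline, and the HPYD group held brain tissue of the same transgenic mice given the peptide HPYD, at 33 mg/mL and 5 µL per day through the nose for 30 days. Transgenic mice were purchased when 8 months old, and the controls were age-matched. All brains were taken after the Morris water maze test, a test of spatial memory. Neither the line nor the promoter of the transgenes is stated in the sources used here, nor is it said that the 3 arrays of a group came from separate mice, so any p-value measures the spread between these arrays, which may be technical.

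Skeletal muscle fibres contract through sarcomeres of myosin, actin, troponin and titin, release calcium through a specialised reticulum and buffer ATP with muscle creatine kinase. Neutrophils are made in the bone marrow, where promyelocytes fill the primary granules with enzymes such as myeloperoxidase, later stages fill the secondary granules with proteins such as lactoferrin, and mature cells carry S100a8 and S100a9. Neurons and glia make neither sarcomeres nor neutrophil granules. The skull around the brain holds bone, marrow and cartilage and carries muscle attachments. Whether any such tissue entered the samples was not tested.

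The values are log2 signals of 19938 genes, each measured by 1 probe set, and array medians over all probe sets lay between 6.69 and 6.82. Levels of different genes were not set against each other, since probe sets differ in their response. In bulk tissue, more cells of a type and more RNA per cell cannot be told apart. The neuronal marker Snap25, a synaptic vesicle fusion protein, was high in all 9 arrays, at 13.08 to 13.27. A list of 14 neuronal genes was less even. Its median difference from the mean of the 6 was -0.26 in model 2, -0.18 in the array labelled HPYD group 3 and -0.01 to 0.12 elsewhere.

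The label of 1 of the 6 other arrays went against its values. Xist, the RNA that silences an X chromosome in female cells, was at 5.20 to 5.69 in the controls, at 11.18 to 11.78 in model 1 to 3, HPYD 1 and HPYD 2, and at 5.22 in the array labelled HPYD group 3. That array had 12.53 for App, which encodes the amyloid precursor, and 11.52 for the prion protein gene Prnp, while the 5 other arrays labelled as transgenic had 12.95 to 13.02 and 12.42 to 12.55. The Y-linked gene Uty went the other way. It was at 7.97 to 8.22 in the controls, 8.20 in the array labelled HPYD group 3 and 3.83 to 4.25 in the 5 other transgenic arrays. The 3 arrays chosen here were therefore all on the high side of Xist and the low side of Uty, as were only model 3 and HPYD 1 among the 6. For that reason, medians against model 3 and HPYD 1 alone are given below for the neutrophil, fast muscle, plaque microglia and megakaryocyte lists. They were also 0.75 for erythroid precursors, 0.72 for monocytes, 0.53 for the cell cycle, 0.51 for osteoblasts and 0.60 for white fat. Differences of single genes are against all 6. Without the array labelled HPYD group 3, the median differences of the main lists were 1.72 for fast muscle filaments, 0.94 for mature neutrophils, 1.28 for secondary and 1.98 for primary granules, against 1.59, 0.90, 1.28 and 2.05 with it.

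The upstream sequences of 4 of the leading genes are shown, since members of their lists were high together on the same arrays. They are the 250 bases before the RefSeq gene start in GRCm38.p6, written 5′ to 3′ on the strand of the gene, with matches to the searched motifs in capitals. Acta1 lies at chr8:123894776-123895025 on the minus strand, and Ckm at chr7:19410844-19411093, S100a8 at chr3:90668821-90669070 and Ngp at chr9:110419558-110419807 on the plus strand.
Acta1: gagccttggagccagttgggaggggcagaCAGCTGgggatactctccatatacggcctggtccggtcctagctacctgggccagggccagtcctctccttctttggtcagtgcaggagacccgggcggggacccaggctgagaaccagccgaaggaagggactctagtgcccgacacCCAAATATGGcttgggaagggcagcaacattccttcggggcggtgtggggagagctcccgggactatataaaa
Ckm: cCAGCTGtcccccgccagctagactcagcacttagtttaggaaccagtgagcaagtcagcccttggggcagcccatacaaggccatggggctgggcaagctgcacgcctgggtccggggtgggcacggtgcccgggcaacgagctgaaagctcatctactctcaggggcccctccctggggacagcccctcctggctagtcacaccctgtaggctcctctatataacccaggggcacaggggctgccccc
S100a8: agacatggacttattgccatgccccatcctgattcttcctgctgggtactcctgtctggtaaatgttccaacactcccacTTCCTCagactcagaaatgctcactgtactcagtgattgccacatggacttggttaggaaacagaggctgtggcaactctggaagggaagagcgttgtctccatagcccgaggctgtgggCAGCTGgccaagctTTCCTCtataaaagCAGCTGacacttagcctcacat
Ngp: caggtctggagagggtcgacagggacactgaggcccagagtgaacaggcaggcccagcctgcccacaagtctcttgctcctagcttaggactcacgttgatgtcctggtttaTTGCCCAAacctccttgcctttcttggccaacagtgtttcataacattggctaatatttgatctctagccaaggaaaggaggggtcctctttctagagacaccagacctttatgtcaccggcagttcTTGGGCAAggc
The motifs were searched on both strands. The E-box CAGCTG, a letter pattern that myogenic factors such as Myod1 can bind, matched 221 bases before the start of Acta1 and 249 before that of Ckm, and also 50 and 22 before that of S100a8. The CArG box of serum response factor matched 73 bases before the start of Acta1. The PU.1 pattern GAGGAA, seen here as its reverse complement, matched at 170 and 36 bases before the start of S100a8, and the C/EBP pattern TTGCNNAA at 138 and 11 before that of Ngp. Over 27025 genes with a window of the same length, 14.7% held the E-box, 1.62% the CArG box, 25.9% the PU.1 pattern and 10.8% the C/EBP pattern. Of 19 fast muscle genes with a window, 8 held the E-box, 4 the CArG box, 5 the PU.1 pattern and 3 the C/EBP pattern. Of 14 secondary granule genes, 3 held the E-box, 0 the CArG box, 7 the PU.1 pattern and 5 the C/EBP pattern, and of 8 primary granule genes 0, 0, 5 and 2. A match is a stretch of letters and not a binding site.

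Across all 19938 genes, 760 were higher in each of the 3 arrays than in each of the 6 others (3.81%) and 308 were lower (1.54%). Their number says nothing, since the arrays were picked from such values. A mean difference over 1 together with no overlap was seen in 172 genes (0.863%), while 32 more genes passed 1 with overlapping arrays. Of the 172 genes, 33 were in a skeletal muscle list, 25 in a neutrophil list, 11 in a list of bone, cartilage or fibroblasts, 6 in the erythroid list, 5 in the cell cycle list and 4 in an adipocyte list. Another 9 were only in lists added after values had been seen, and 66 were in no list. A gene is called higher in what follows where all 3 arrays lay above all 6 others.

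The largest difference of all genes was that of Car3, a carbonic anhydrase abundant in slow muscle and in fat. It measured 11.35 in model 1, 11.60 in model 2 and 10.46 in HPYD 2, against 6.01 to 6.36 (median 6.18) in the other 6, a mean difference of 4.98 or 31.5-fold. Among the 25 genes with the largest differences, 11 were neutrophil genes and 4 were skeletal muscle genes (Myl1, Atp2a1, Myh1 and Myot). A further 2 were of eosinophils (Ear6 and Prg2), 1 of platelets (Ppbp) and 1 of monocytes (Ifitm6). Only 2 of the 25 overlapped between the array sets. These were Xist and Prl, the pituitary hormone prolactin.

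Genes of the fast skeletal muscle fibre were high in all 3 arrays. Of 29 measured filament genes, 24 were higher, and the median difference over the list was 1.59, against -0.02 over all genes. Acta1, the skeletal alpha actin, measured 10.23 in model 1, 11.93 in model 2 and 8.64 in HPYD 2, and 7.50 to 7.88 (median 7.78) in the others. The 3 arrays differed among themselves by more than the 6 others did, with means of 10.27 ± 1.65 (SD, n = 3) and 7.74 ± 0.14 (SD, n = 6). Myl1, the light chain of fast myosin, measured 10.40, 11.74 and 8.81 in model 1, model 2 and HPYD 2, and 5.46 to 5.90 (median 5.62) in the others, 25.5-fold. The heavy chains of the fast fibre types followed, with differences of 3.45 for Myh1, 2.67 for Myh4 and 2.63 for Myh2. So did fast troponin T (Tnnt3, 2.71), the giant spring and ruler proteins titin (Ttn, 2.50) and nebulin (Neb, 2.43), and the Z-disc proteins Myot (3.26), Xirp2 (2.24) and Myoz1 (2.05). Model 2 was the highest array in this list, and without it the median difference was 0.95.

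**Figure D1:**
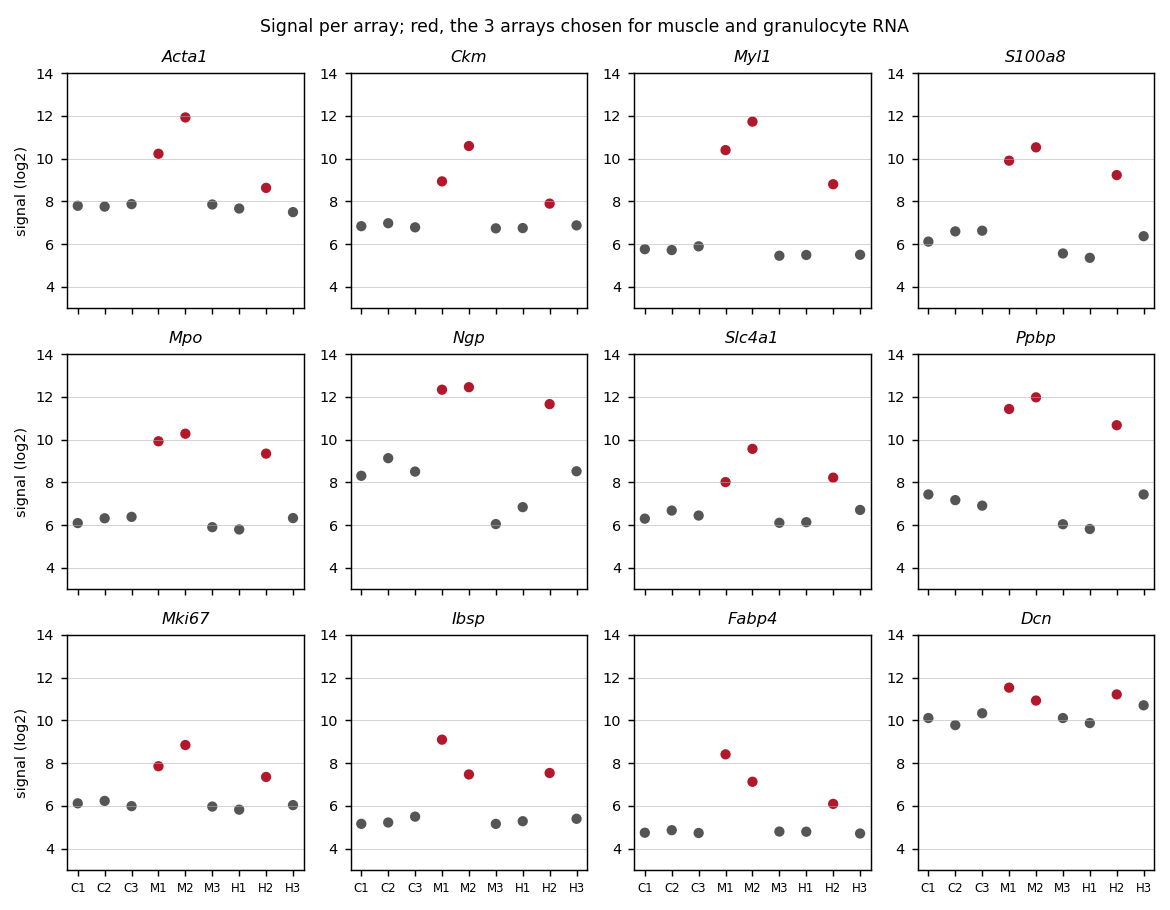
Log2 signal (vertical axis) of 12 genes in each of the 9 arrays (horizontal axis; C control, M model, H HPYD), with the 3 chosen arrays in red and the 6 others in grey. Acta1, Ckm and Myl1 were highest in M2 and lowest of the red arrays in H2, while Mpo and Ngp lay within 1 log2 unit over the red arrays.

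The machinery that drives these filaments was present as well. Ckm, muscle creatine kinase, measured 8.94 in model 1, 10.59 in model 2 and 7.90 in HPYD 2, and 6.74 to 6.98 (median 6.82) in the others, a difference of 2.31. In the muscle energy list 10 of 19 genes were higher, with a median of 0.68, which was 0.35 without model 2. They included myoglobin (Mb, 2.26), which stores oxygen, muscle enolase (Eno3, 2.23) and Cox8b (2.54), a subunit of cytochrome oxidase found in muscle and brown fat. Atp2a1, the calcium pump of the fast sarcoplasmic reticulum, measured 10.51, 12.14 and 8.86 in the 3 arrays, and a median of 6.77 in the others (lowest 6.49). Its partners Casq1, which binds calcium in the reticulum, and Trdn, which anchors it at the release channel, differed by 2.14 and 1.93. In the whole calcium and excitation list, these 3 included, 6 of 23 genes were higher and the median was 0.26 (0.16 without model 2). Smpx, a small protein of the muscle membrane skeleton, differed by 1.42 with overlapping arrays. The channel Ryr1 differed by 0.71, with HPYD 2 at 7.13 inside the range of the others.

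Lists of slow fibre, heart, smooth muscle and muscle precursor genes had smaller median differences than the fast filament list. Of the slow filament genes 1 of 10 was higher, Myoz2, a calcineurin-binding Z-disc protein (difference 1.89), and the list median of 0.38 was 0.19 without model 2. The mean of the 3 arrays was above that of the others in 9 of the 10. Myh7, the slow myosin heavy chain, differed by 0.52, with 6.97, 7.55 and 6.60 in the 3 arrays and 6.31 to 6.68 in the others. In the heart list, 1 of 11 genes was higher, the cardiac actin Actc1 (0.79), which skeletal muscle also makes at a low level. The heart genes Myh6 (0.06) and Nppa (-0.12) stayed near 0. In the smooth muscle list the higher gene was Des, 1 of 10, an intermediate filament gene shared with skeletal fibres (1.95), and Acta2 differed by 0.18. In the muscle precursor list 2 of 8 genes were higher and the median was 0.06, with Pax7 at 0.07, Myod1 at 0.02 and Myog at -0.07. Myf6, the myogenic factor of mature fibres, was higher, with 6.43, 7.32 and 5.90 against 5.47 to 5.72.

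Genes that differ between muscles of the head and of the trunk gave little separation. None of 7 genes of head muscle regulators and of eye or developing muscle myosins was higher, and their median was 0.09. Of 37 Hox genes, which pattern the trunk and the hindbrain, 4 were higher and the median was 0.10. By array it was 0.08 in model 1, 0.08 in model 2 and 0.11 in HPYD 2, but 0.14 in the array labelled HPYD group 3. Hoxa5 (5.36, 6.54 and 5.06 in the 3 arrays, 4.49 to 4.99 in the others) and Hoxb5 (5.83, 6.86 and 5.85, against 5.10 to 5.74) led, and both were highest in model 2. A brain stem list with Hoxb2 and Hoxb3 in it, added after values had been seen, was also highest in model 2. Its medians were 0.09 in model 1, 1.66 in model 2, 0.50 in HPYD 2 and 1.25 in the array labelled HPYD group 3. The tissue behind the Hox values was not tested. Tbx1, a regulator of head muscle, measured 7.23, 7.23 and 7.43 against 7.15 to 7.27.

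Granulocyte genes of the promyelocyte, of later precursors and of the mature neutrophil were high together. Of 45 genes in 3 lists 36 were higher, with a median difference of 1.48. By array the median was 1.37 in model 1, 1.96 in model 2 and 1.01 in HPYD 2, so the spread between the arrays was smaller than for fast muscle, where it was 1.34, 2.96 and 0.51. S100a8, a calcium-binding protein of mature neutrophils, measured 9.91, 10.53 and 9.23 in model 1, model 2 and HPYD 2, and 5.36 to 6.63 (median 6.25) in the others. In the mature list 14 of 19 genes were higher (median 0.90), among them the collagenase Mmp8 (3.79), Retnlg (3.50), S100a9 (3.40) and the chemokine receptor Cxcr2 (2.54).

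In the secondary granule list 14 of 17 genes were higher (median 1.28). Ngp, neutrophilic granule protein, measured 12.33, 12.45 and 11.66, and 6.05 to 9.13 (median 8.40) in the others. The list also held the surface marker Ly6g (3.77), the chitinase-like protein Chil3 (3.76), lactoferrin (Ltf, 3.67) and the siderophore-binding protein Lcn2 (2.84). In the primary granule list 8 of 9 genes were higher, and its median of 2.05 was the highest of all lists. Mpo, the myeloperoxidase of promyelocytes, measured 9.92, 10.28 and 9.34, against 5.79 to 6.38 (median 6.21), with means of 9.85 ± 0.47 (SD, n = 3) and 6.14 ± 0.25 (SD, n = 6). The granule proteases Elane (3.37), Ctsg (2.98) and Prtn3 (2.27) were also higher, while Gfi1, a transcription factor of the lineage, differed by 0.07.

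Within the 6 other arrays the granulocyte genes were not level. Ngp was 8.31, 9.13 and 8.50 in the controls and 8.52 in the array labelled HPYD group 3, but 6.05 in model 3 and 6.84 in HPYD 1. Model 3 and HPYD 1 both lay below the other 4 in 10 of 19 mature, 7 of 17 secondary and 4 of 9 primary granule genes and in 5 of 17 erythroid genes, against 6.78% of all genes. Against these 2 arrays alone the medians were 1.07 for mature, 1.35 for secondary and 2.10 for primary granule genes, and 1.73 for fast muscle filaments.

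Other lineages of the marrow were high in the same arrays. Of the eosinophil, basophil and mast cell genes 7 of 15 were higher (median 0.27), led by the eosinophil granule genes Ear6 (8.99 in model 1, 9.39 in model 2 and lowest of the 3 in HPYD 2, against 5.02 to 5.45, a difference of 3.52) and Prg2 (8.70, 9.30 and 8.57, against 5.31 to 5.88), while the mast cell receptor chain Ms4a2 was at -0.04. Of the erythroid precursor genes 11 of 17 were higher (median 0.66). Slc4a1, the red cell anion exchanger, measured 8.01, 9.57 and 8.22, against 6.11 to 6.71 (median 6.37), and Alas2, which starts haem synthesis in red cells, 7.38, 8.20 and 7.68, against 5.74 to 6.30. Megakaryocyte and platelet genes were higher in 10 of 11 (median 0.62). Ppbp, a platelet chemokine, measured 11.43, 11.98 and 10.67, against 5.82 to 7.43 (median 7.04), while Pf4 differed by 1.65 and the platelet integrin Itga2b by 0.62. Monocyte genes were higher in 6 of 9 (median 0.71), led by Ifitm6 (3.45), Plac8 (1.49) and Ms4a6c (1.12). Without model 2 the erythroid median was 0.48 and the monocyte median 0.51.

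Lists of lymphocyte genes differed among themselves. Of 20 B cell genes 6 were higher, with a median of 0.14. The antigen receptor chains Cd79a (0.62) and Cd79b (0.52) were among them, but Vpreb3 of B precursors was at 0.16 and overlapped. Of 7 plasma cell genes 1 was higher, Jchain, which joins secreted antibodies, with 7.04, 7.63 and 5.81 against 4.65 to 5.23. None of 14 T cell genes was higher (Cd3e 0.10, Cd3g 0.20, Cd3d 0.03). Among natural killer genes Gzmb was the 1 of 10 that did not overlap, at a difference of 0.05. In a list of immunoglobulin genes added after values had been seen, 7 of 11 were higher and the median was 0.79, with Igha, the constant part of IgA, at 10.15, 8.56 and 7.26 against 5.17 to 6.54. In an MHC class II list added in the same way 4 of 6 were higher, with Cd74 at 8.94, 8.61 and 8.73 against 7.06 to 7.72.

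Genes of dividing cells were higher too. Mki67, a protein of cycling nuclei, measured 7.86, 8.85 and 7.36, against 5.83 to 6.24 (median 6.01), and 16 of 24 cell cycle genes were higher, with a median of 0.54. Cyclins Ccna2 (1.52) and Ccnb2 (1.30), the topoisomerase Top2a (1.24) and the kinase Cdk1 (1.10) had the next largest differences. Model 2 exceeded model 1 in 21 of the 24 genes, and the median without model 2 was 0.29.

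Bone and connective tissue genes were high as well. Ibsp, a sialoprotein of mineralised bone matrix, measured 9.10 in model 1, 7.47 in model 2 and 7.54 in HPYD 2, and 5.16 to 5.50 (median 5.26) in the others. In the osteoblast and osteocyte list 7 of 11 genes were higher, with the collagen I chains Col1a1 (1.27) and Col1a2 (1.20) and the osteocyte products Sost (0.48) and Mepe (0.37), and the median of 0.48 was 0.31 without model 1. The osteoclast list had 4 of 9 genes higher and a median of 0.05, and its bone-degrading enzymes Acp5 (8.77, 8.55 and 8.25, against 6.45 to 6.66) and Ctsk (7.91, 7.65 and 7.44, against 6.03 to 6.31) and the proton pump part Atp6v0d2 (1.02) were higher. The fusion protein Dcstamp (0.05) and the calcitonin receptor Calcr (-0.56) were not. Mmp13, a collagenase of bone and growth cartilage that is in no list and was named after its values were seen, measured 7.43, 7.18 and 7.12 against 5.04 to 5.52.

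In cartilage 2 of 16 genes were higher, Chad (9.59, 8.17 and 7.84, against 5.78 to 6.36) and the matrix protein Comp (0.86), and the list median of 0.14 was 0.04 without model 1. The main cartilage collagen Col2a1 differed by 0.27 and overlapped. Fibroblast and tendon genes were higher in 6 of 17 (median 0.35), among them the small matrix proteoglycans Dcn (11.53, 10.93 and 11.22, against 9.78 to 10.71) and Lum (1.10), the skin and fascia protein Dpt (1.61) and the joint lubricant Prg4 (1.37). The tendon marker Tnmd was at 0.01. Of 13 meningeal genes 1 was higher, Igf2, at a difference of 0.19.

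White fat genes were higher in 8 of 15 (median 0.54). Fabp4, a fatty acid carrier of adipocytes, measured 8.41 in model 1, 7.13 in model 2 and 6.10 in HPYD 2, against 4.71 to 4.87 (median 4.77). The hormone adiponectin (Adipoq) followed the same order, at 7.21, 6.25 and 5.46 against 4.66 to 4.89, and so did Plin1 (7.83, 7.15 and 6.75, against 6.39 to 6.70), which coats fat droplets. Brown fat was seen mainly in model 1, where Ucp1, the uncoupling protein of heat-making fat, measured 9.17, with 6.12 in model 2, 6.00 in HPYD 2 and 4.78 to 5.21 in the others. In that list 2 of 8 genes were higher, and its median of 0.22 was 0.13 without model 1.

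Genes of most other organs did not separate the arrays. Over 13 lists (keratinocyte, hair follicle, salivary and lacrimal gland, Schwann cell, retina and lens, kidney, pancreas, testis, liver, lung, gut, T cell and natural killer cell) 5 of 151 genes were higher, and the list medians lay between -0.07 and 0.07. Of all genes 3.81% were higher, so this count does not set the lists apart from other genes. The 13 were picked from 19 lists with a median within 0.1 of 0. A sensory ganglion list, also among the 19, had no higher member in 10 and a median of 0.02. By array it was 0.13 in model 1, -0.46 in model 2, 0.52 in HPYD 2 and 1.06 in the array labelled HPYD group 3. The skin keratins Krt14 (0.01) and Krt5 (-0.04), rod transducin Gnat1 (-0.01), surfactant protein Sftpc (-0.18) and the digestive enzyme Cpa1 (-0.04) overlapped between the array sets. The 5 exceptions were Alb (0.17), Cyp2e1 (1.76), Napsa (0.86), Tff2 (0.67) and Gzmb. Cyp2e1, on the liver list, is an oxidase that adipocytes also express, and Tff2, on the gut list, is a mucus peptide. Napsa, on the lung list, is an aspartic protease. In all, 12 of the 42 lists of tissues and cells outside the brain had no higher member and 10 had a median over 0.5.

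**Figure D2:**
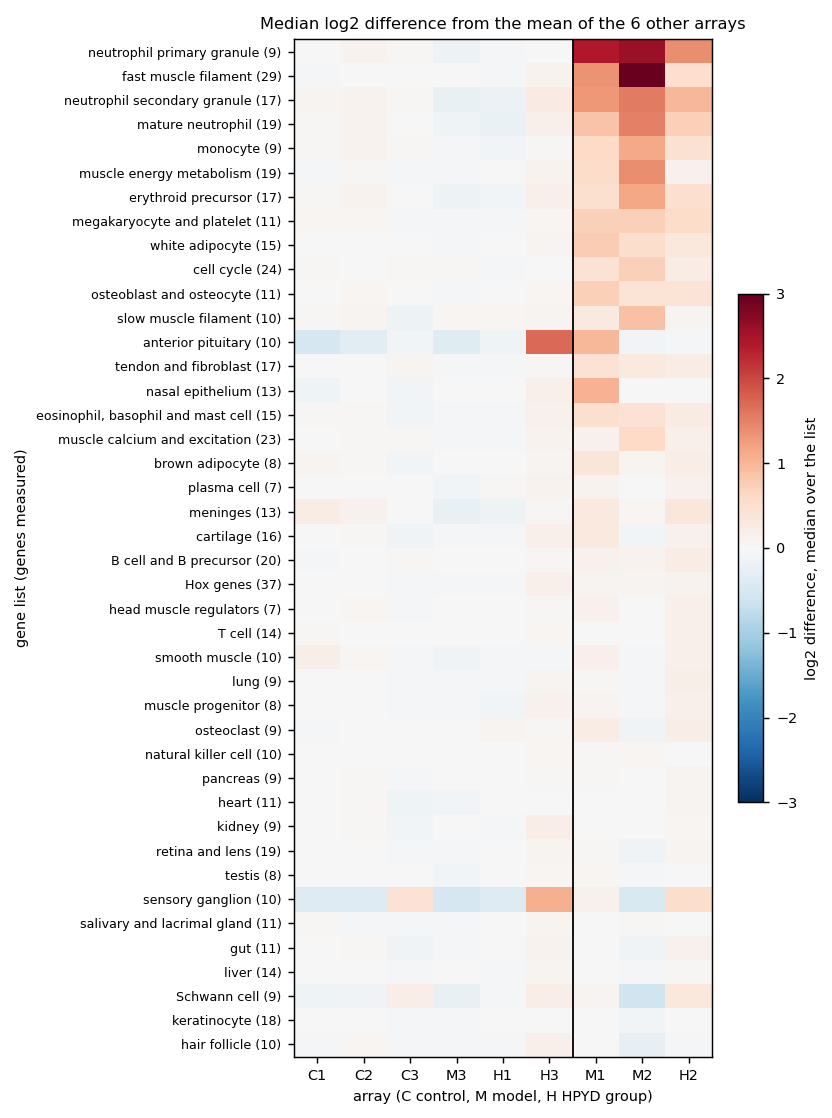
Median log2 difference from the mean of the 6 other arrays (colour) for the 42 lists outside the brain (rows, with the number of genes measured) in each array (columns; the 3 chosen arrays stand right of the line). Fast muscle, neutrophil, erythroid, adipocyte and osteoblast rows are positive in all 3 arrays, and liver and kidney rows stay near 0. Some rows stand out in single arrays (nasal epithelium at 1.04 in model 1, Schwann cell at -0.59 in model 2). The anterior pituitary row is at 0.99 in model 1 and at 1.71 in the array labelled HPYD group 3.

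The 3 arrays differed in which lists were highest. Of all genes, 44.5% were higher in model 2 than in model 1 and 52.1% the other way (the rest were tied). Model 2 exceeded model 1 in 28 of 29 fast filament, 17 of 19 muscle energy, 15 of 17 erythroid, 10 of 11 megakaryocyte and 21 of 24 cell cycle genes. Model 1 exceeded model 2 in 9 of 11 osteoblast, 14 of 16 cartilage, 11 of 15 white fat and 8 of 8 brown fat genes. HPYD 2 had the lowest fast filament median of the 3, with model 1 above it in all 29 fast filament genes. With the antilog signals summed over the fast filament list, the excess over the mean of the 6 others in model 2 was 3.52 times that in model 1, and in HPYD 2 it was 0.192 times. For the secondary granule list the same ratios were 1.24 and 0.641. For white fat they were 0.221 and 0.207. Such sums give most weight to the brightest probe sets of a list. The array with the least fast muscle excess of the 3, HPYD 2, had a list median of 0.51, and the highest among the 6 others was 0.11, in the array labelled HPYD group 3.

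**Figure D3:**
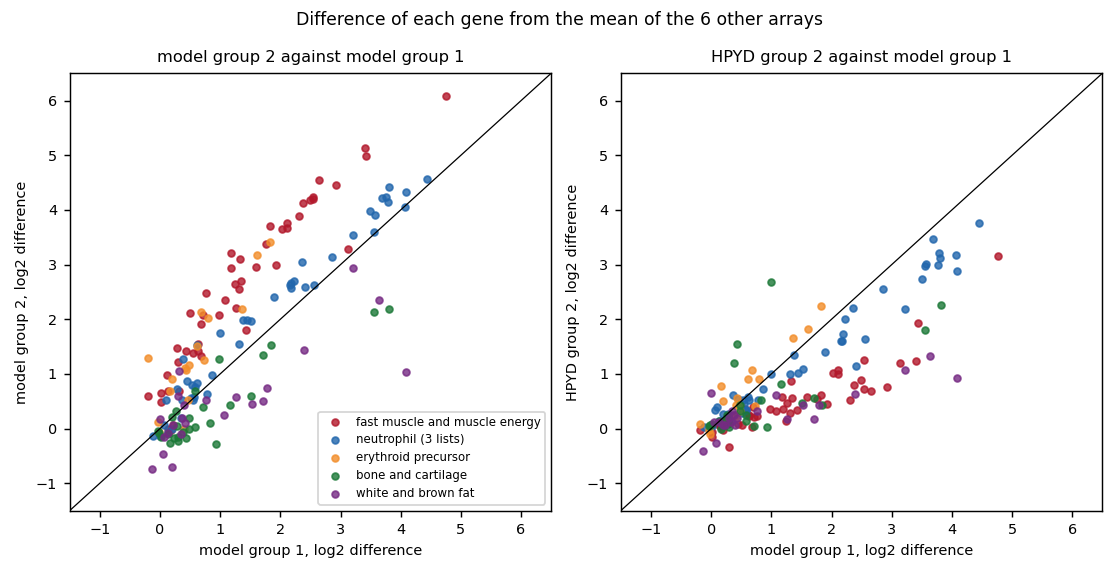
Each point is a gene, placed by its log2 difference from the mean of the 6 other arrays in model 1 (horizontal axes) and in model 2 (left) or HPYD 2 (right); the line marks equal differences and colours mark groups of lists. Muscle and erythroid genes lie mostly above the line at left and bone and fat genes mostly below it, and at right the muscle genes lie furthest below it.

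Some genes known from glands, airway or inner ear were high in single arrays, and the tissue they came from was not tested. In model 2 the acid lipase Lipf measured 11.79, against 5.71 in model 1, 5.42 in HPYD 2 and 4.16 to 4.70 in the 6 others. The mucosal proteins Bpifb1 (11.63, against 6.79 and 6.85), Dmbt1 (9.57, against 5.16 and 5.03) and lysozyme Lyz1 (10.58, against 7.83 and 7.28) were high in the same array. These genes are known from glands of the tongue and airway, and a list of 12 such genes, added after they had been seen, had a median of 0.37 (0.16 without HPYD 2). By array the list medians were 0.22 in model 1, 0.34 in model 2 and 0.27 in HPYD 2, so the list as a whole was not much higher in model 2, and members such as Trpm5, Sval1, Krt4 and Krt13 lay there within the range of the 6 others. In HPYD 2 the secreted airway and nasal proteins Bpifa1 (10.61, against 7.24 and 6.05) and Reg3g (10.25, against 7.01 and 6.43) stood out. Coch, a matrix protein of the inner ear, measured 11.01 there against 9.56 and 7.45, and 7.18 to 9.11 in the others. In a list of 22 inner ear genes, added after Coch had been seen, HPYD 2 had a median of 0.71, while the list median of 0.21 was 0.01 without that array. The cartilage peptide Ucma was 10.37 in HPYD 2, 8.68 in model 1 and 8.97 in model 2, but 9.07 in the array labelled HPYD group 3.

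Model 1 stood out by brown fat (Ucp1), by the cartilage lectin Clec3a (8.28, against 6.06 and 6.34) and by genes of the olfactory epithelium. Omp, made by mature olfactory neurons, measured 7.21, against 5.86 and 6.20 in model 2 and HPYD 2 and 6.02 to 6.36 in the others, and S100a5, also of olfactory neurons, 7.55, against 5.46 and 5.77. The nasal list of 13 genes had a median of 1.04 in model 1 alone, and its overall median of 0.32 was -0.00 without that array. Model 1 was also high in pituitary hormones, with Prl at 13.26 and growth hormone (Gh) at 13.13. These were not particular to the chosen arrays, since the array labelled HPYD group 3 had more Gh than model 2 (11.12) or HPYD 2 (10.27) and the pituitary list had no higher member among 10 (median 0.35, or 0.06 without model 1).

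**Figure D4:**
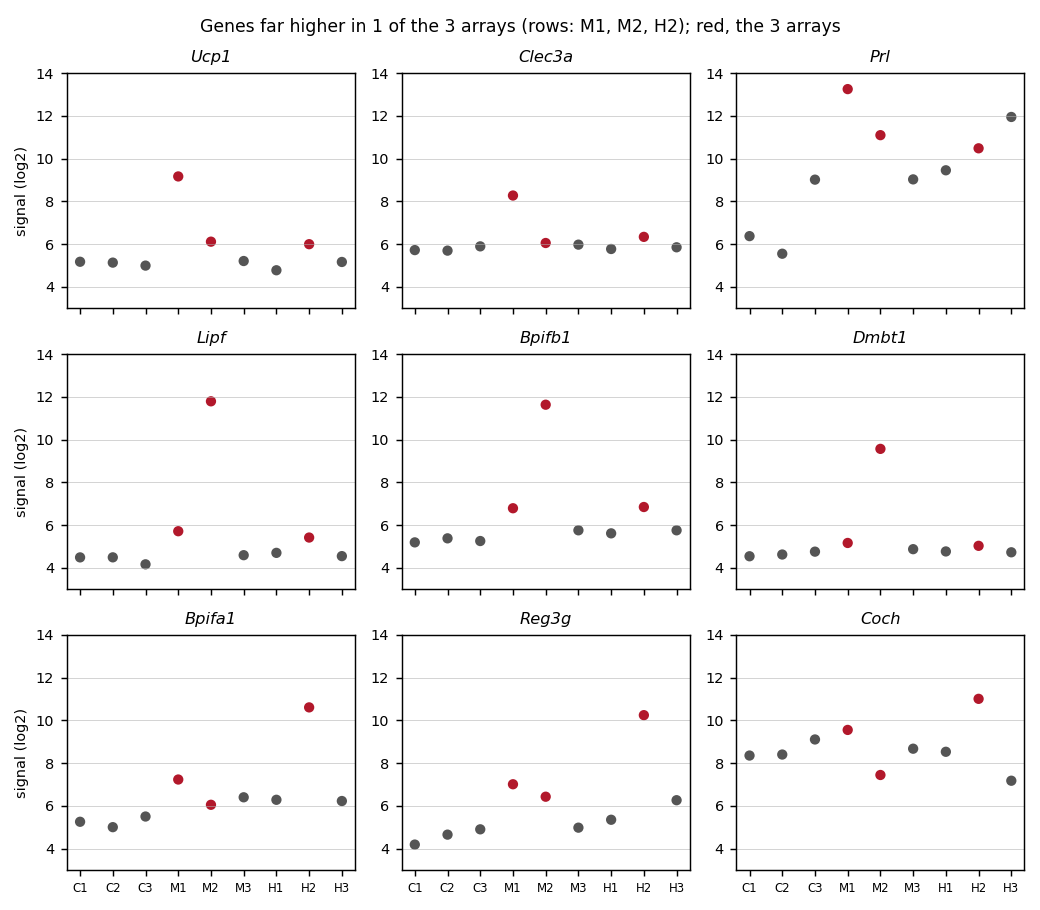
Log2 signal (vertical axes) of 9 genes in the 9 arrays (horizontal axis; C control, M model, H HPYD), with the 3 chosen arrays in red; the rows hold genes highest in M1, M2 and H2. Lipf reached 11.79 in M2 and 4.16 to 5.71 elsewhere, whereas Prl was also high in H3.

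Brain lists were compared in the same way. The endothelial, astrocyte and resting microglia lists had medians of 0.02, 0.06 and 0.02. The neuronal median of -0.09 was 0.03 without model 2, and the oligodendrocyte median of 0.05 was -0.14 without it. Choroid plexus genes had a median of -0.16, with -0.16 in model 1, 0.43 in model 2 and -0.70 in HPYD 2. Genes of microglia near amyloid plaques had a median of 0.33, with a higher mean in all 11 and no overlap in 1 (Ccl6, a chemokine), but the median was -0.04 against model 3 and HPYD 1 alone. Among the 15 genes with the smallest differences were the Y-linked Uty (-2.92), Eif2s3y (-2.85) and Kdm5d (-1.88). These were low in all 5 arrays with high Xist. Markers of striatal medium spiny neurons were also among the 15. A list of 13 such genes, added after these had been seen, had a median of -1.06, with 6 of 13 lower in all 3 arrays. Rgs9, a G protein regulator of the striatum, measured 8.06 in model 1, 7.92 in model 2 and 8.03 in HPYD 2, against 9.80 to 10.07 in 5 of the others and 8.15 in the array labelled HPYD group 3. Drd2, the dopamine D2 receptor, measured 8.72, 8.90 and 8.44, against 9.22 to 10.62. The list medians by array were -1.04, -1.27 and -1.14 in the 3 arrays and also -1.14 in the array labelled HPYD group 3, whose fast muscle median was 0.11.

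A cerebellum list, also added, was high in model 2 (2.81) and in the array labelled HPYD group 3 (2.98), and its difference of 0.92 was -0.00 without model 2. Gabra6, the GABA receptor subunit of granule cells, measured 11.35 in model 2 and 11.29 in the array labelled HPYD group 3, and 4.54 to 8.20 in the 7 others. Hypothalamic peptides such as Pmch (5.47, 5.36 and 5.14 in the 3 arrays) were also low in control 3 (5.33) and in the array labelled HPYD group 3 (5.72), against 7.37 to 9.84 in the 4 others. Markers of brain regions thus differed between arrays beside the muscle and granulocyte genes, and their part in that difference was not tested.

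**Figure D5:**
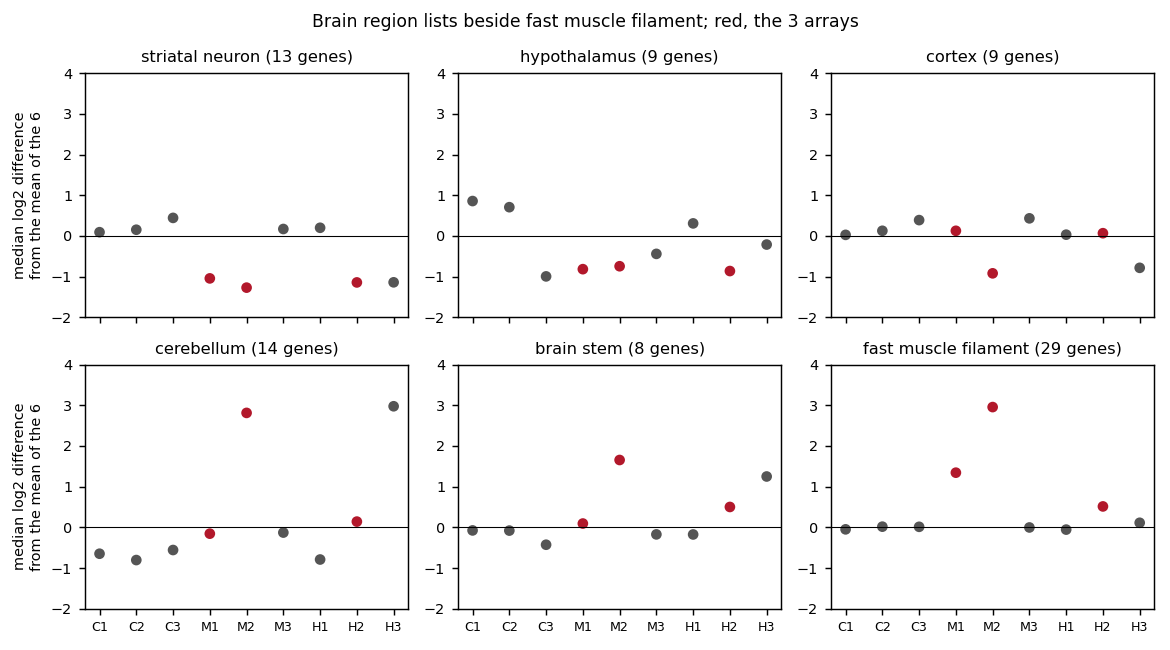
Median log2 difference from the mean of the 6 other arrays (vertical axes) for 5 brain region lists and the fast muscle filament list, in each array (horizontal axis; C control, M model, H HPYD), with the 3 chosen arrays in red. The striatal list lies between -1.27 and -1.04 in the red arrays and at -1.14 in H3, where the fast muscle list is at 0.11.

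The labelled groups were compared across all 19938 genes with limma, with the groups sharing 1 estimate of the spread. No gene passed an adjusted p under 0.05 (0%) in any pairwise comparison of the groups (model with control, HPYD with model, HPYD with control), or in the F test over all of them (0%), and 980, 393, 646 and 546 genes had an unadjusted p under 0.05. One-way analysis of variance per gene also called 0 genes, with 441 at an unadjusted p under 0.05. Without the array labelled HPYD group 3, limma called 7 genes between model and control, 0 between HPYD and model and 8 between HPYD and control. The transgenic arrays left all had high Xist and low Uty, and the controls the reverse. Effects of the labels and of sex therefore cannot be told apart in these calls, nor between model and control with all arrays.

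As 2 of the 3 arrays carried the model label and 1 the HPYD label, the genes that were high in them entered each labelled comparison, and these comparisons share arrays. Over the 172 genes, which were selected for being high in these arrays and include 75 outside the 49 lists, the median log2 difference was 1.34 for model minus control, -0.97 for HPYD minus model and 0.36 for HPYD minus control, against -0.01, 0.02 and 0.01 over all genes. For Acta1 limma gave 2.20 with a standard error of 0.87 for model minus control (adjusted p = 0.859) and -2.07 with a standard error of 0.87 for HPYD minus model (adjusted p = 1). Without the 3 arrays, which leaves 1 model and 2 HPYD arrays, the same differences of Acta1 were 0.05 and -0.27. For S100a8 they were 2.22 and -1.68 with all arrays, and -0.89 and 0.30 without the 3. The within-group SD of the fast filament genes had a median of 0.965 over the 9 arrays and of 0.13 without the 3 (0.124 and 0.109 over all genes). The 3 arrays were chosen for high values of Acta1, Ckm and S100a8. How these values changed without those arrays was therefore set by that choice and is no test.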

How the data were processed

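Brain RNA was hybridised to 9 Mouse Gene 1.0 ST arrays, and the sample labels put 3 arrays in each of 3 groups. The authors deposited 1 table of log2 values for 35556 probe sets. MAS5 is named, with no version, in the processing notes of the submitters. Sources used here do not give the background correction or normalization. Values were used as deposited, and 0 columns were left out. Of the probe sets, 21789 had 1 gene symbol in the platform's table, 1621 had several and 12146 none. In 999 genes more than 1 probe set was present and the brightest on average represented the gene, leaving 19938 genes. The precision is limited by the number of arrays.

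The 3 arrays were set by their values, so they were compared with the other 6 by differences of mean log2 values without a test. The array set, the 49 gene lists and the tests were chosen with earlier results of these data known, and 9 lists were added after values had been seen. Of 713 list entries 654 were measured. Genes were named by a rule: Acta1, Ckm and S100a8, the first 3 members and up to 5 with the largest difference of each described list, the 25 largest and 15 smallest differences over all genes, the 10 genes per array that most exceeded the other chosen arrays, and App, Prnp, Xist, Kdm5d, Uty, Eif2s3y, Cst7 and Ccl6 as checks of the labels. Other genes were named after their values were seen.

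The labelled groups were fitted together in R 4.3.3 with limma 3.58.1 (lmFit and eBayes, no covariate), with the Benjamini-Hochberg adjustment at 0.05. Other steps ran in Python 3.11.15 with pandas 2.3.3. The scripts were tested on simulated data. Alternatives were median and quantile normalization, leaving out dim genes, other probe set and list summaries, other arrays for comparison, a replicate block, the array set as covariate, leaving out arrays, and one-way analysis of variance, which the paper names for its other data. Upstream sequences came from RefSeq for GRCm38.p6.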

Additional observations from a re-analysis of the deposited data

Results flagged for a closer look

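Some probe sets that were left out of the gene values were higher in the chosen arrays than in the controls, and are given here because they stand outside the main measurement. Among 1621 probe sets with several gene symbols, 36 (2.22%) had model 1, model 2 and HPYD 2 each above all 3 controls and a mean log2 value more than 1 above that of the controls. Among 12146 probe sets without a gene name here, 39 (0.321%) did so, against 215 (1.08%) of the 19938 named genes. Set against all 6 other arrays, the counts were 23 (1.42%), 35 (0.288%) and 172 (0.863%). The arrays were chosen from their values, so the counts have no test.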

How the results depend on the processing

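For 10 lists (fast muscle filament, muscle energy metabolism, 3 neutrophil lists, erythroid precursor, megakaryocyte and platelet, cell cycle, osteoblast and osteocyte, and white adipocyte), 180 values were taken under 9 settings and with each of 9 arrays left out. All 180 were above 0 and 170 moved by less than the SD of the list medians of the 3 arrays. Neither count is a test. The arrays were chosen for high values of such genes, and every setting kept most of them on the raised side. The SD was also wide, at 1.24 for fast muscle beside a difference of 1.59. When the dimmest 33.3% of genes were dropped, the median was 2.85 for the 8 mature neutrophil genes left, 2.82 for the 4 primary granule genes and 1.00 for the cell cycle, and 107 genes in place of 172 differed by over 1 without overlap. Megakaryocyte and platelet genes had 0.82 against model 3 and HPYD 1 alone and 0.85 within the labelled groups. As means over members in place of medians, the differences were 1.48 for mature neutrophils, 1.76 for secondary granules, 1.07 for megakaryocytes and 0.75 for osteoblasts. Leaving out single arrays gave 0.95 (without model 2) to 2.20 (without HPYD 2) for fast muscle, 0.35 to 0.97 for muscle energy, 0.79 to 1.06 for mature neutrophils, 1.15 to 1.43 for secondary and 1.78 to 2.50 for primary granules, 0.48 to 0.78 for erythroid, 0.59 to 0.71 for megakaryocyte, 0.29 to 0.70 for cell cycle, 0.31 to 0.55 for osteoblast and 0.43 to 0.66 for white fat genes, and 148 to 234 genes without overlap. The cause was not tested.

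With limma, leaving out single arrays called 0 to 7 genes between model and control, 0 between HPYD and model, 0 to 8 between HPYD and control and 0 to 7 in the F test. All calls arose without the array labelled HPYD group 3, where transgenic and control arrays also differed throughout in Xist and Uty. Without the 3 chosen arrays, or with the array set as a covariate, 0 genes were called, with 415, 537 and 1014, and 434, 592 and 385, at an unadjusted p under 0.05. Deviations from the group means correlated at -0.32 to 0.18 between arrays with the same replicate number. Whether the numbers pair the arrays cannot be decided from this, since the deviations also hold the muscle and granulocyte difference. A fit with the replicate block called 0 genes, with 930, 334 and 520 at an unadjusted p under 0.05.

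Genes near the floor of the array have compressed differences, so a small difference does not show that a tissue was absent. In 41.2% of probe sets at least 1 pair of arrays had the identical value. A tie between a chosen and another array counted as overlap. The normalization behind the values could not be repeated.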

Other observations

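Of the 66 genes that differed by over 1 without overlap and were in no list, several have known sites of expression and were named after their values were seen. Leukocyte genes were Cybb, the oxidase subunit of phagocytes (9.33, 9.64 and 8.46 in model 1, model 2 and HPYD 2, against 6.30 to 6.53), Lyz2, the lysozyme of myeloid cells (11.43, 11.65 and 10.93, against 8.45 to 9.62), and Rac2, a GTPase of blood cells (8.78, 9.07 and 8.75, against 7.17 to 7.54). Sarcomere genes outside the lists were Tmod4, which caps actin filaments (7.09, 8.91 and 6.20, against 5.02 to 5.43), and Tpm2, a tropomyosin (8.78, 10.49 and 7.64, against 7.05 to 7.32). Ctse, an aspartic protease, measured 8.09, 9.65 and 8.02, against 5.81 to 6.17, and Thbs1, a matrix protein that platelets release, 9.04, 8.86 and 8.52, against 7.08 to 7.41. Cyp2f2, an oxidase of airway cells, was highest in HPYD 2 (8.99, 8.34 and 9.73, against 6.66 to 8.16).

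Probe sets for precursors of muscle and blood microRNAs overlapped between the array sets. Mir206 measured 3.05 in model 1, 3.19 in model 2 and 3.21 in HPYD 2, and 3.11 to 3.25 in the others. Mir451a, a red cell microRNA, measured 3.75, 4.01 and 3.97, and 3.78 or more in the others. The same held for all 8 precursors examined, which were picked with the results known. All 8 lay at 2.99 to 4.41, well under the array medians of 6.69 to 6.82. So near the floor, the overlap does not show that these microRNAs were level.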
